A study of Mus musculus with 6 samples.

Results

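The homeostatic identity genes of microglia examined here are 9 genes, Tmem119, Olfml3, Fcrls, Sparc, Selplg, Cx3cr1, Golm1, Crybb1 and Rnase4, taken by symbol from the 37447 genes of the deposited expression table. The study, on optic glioma in neurofibromatosis type 1, sequenced RNA of flow-sorted microglia, which are macrophages resident in nervous tissue, from optic nerves of C57BL/6 mice aged 3 months. The FMC group (4 libraries) has the genotype Nf1 flox/mut with GFAP-Cre, and the FM group (2 libraries) is Nf1 flox/mut without Cre, so all mice carry 1 floxed and 1 mutant allele of the tumour suppressor gene Nf1. The GFAP promoter is known to drive Cre in astroglial cells. FMC 1 and FMC 4 are labelled female and FMC 2 and FMC 3 male; FM 1 is labelled male and FM 2 female. The labels call the libraries biological replicates and do not say whether tissue of several mice was pooled, so p-values measure the spread between these 6 libraries. Levels are in FPKM, which divides fragments by the length of the transcript and the total mapped in the library and so allows levels of different genes to be ordered.

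In the healthy nervous system microglia keep a gene programme that separates them from blood monocytes and from macrophages of the meninges and vessels, and that programme depends on TGF-beta signalling. Several of its genes encode proteins of the cell surface. Tmem119 is a membrane protein used to mark microglia, Cx3cr1 is the receptor through which microglia sense the neuronal chemokine fractalkine, Selplg is a ligand of selectins, and Fcrls is an Fc receptor-like scavenger molecule of mouse microglia. Others are secreted: Sparc is a matricellular glycoprotein, Olfml3 an olfactomedin-like matrix protein, and Rnase4 an RNase of the angiogenin group. Golm1 encodes a membrane protein of the Golgi, and Crybb1 a beta crystallin best known from the lens. Many of these genes fall when microglia become activated, which makes their level in a tumour setting a question of interest.

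All 9 genes reached at least 1 FPKM in all 6 libraries, and none passed the test of FMC against FM across all genes. Their order of level was Sparc, Selplg, Tmem119, Rnase4, Olfml3, Cx3cr1, Golm1, Crybb1 and Fcrls. In FMC libraries the means ran from 13.8 FPKM (Fcrls) to 867 FPKM (Sparc), and in FM libraries from 27.0 FPKM (Crybb1) to 1145 FPKM (Sparc). Fcrls had the largest difference of the 9 and was the 1 member whose FMC libraries all lay below both FM libraries as deposited, which did not hold after median ratio scaling. FM 2 held the highest level of 6 of the 9 genes.

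Summed FPKM ran from 420285 in FM 1 to 674799 in FMC 1, and the 3 libraries labelled male had the 3 lowest sums. Depth relative to FMC 2, estimated from the steps of low FPKM values, ran from 1.17 (FM 1) to 2.16 (FMC 4). Nf1 itself was between 48.0 and 138 FPKM in FMC and between 39.3 and 50.0 FPKM in FM, which checks nothing about a deletion made in other cells. General markers of microglia and macrophages were high in all libraries, with Itgam between 312 and 373 FPKM in FMC and at 201 and 322 FPKM in FM. The Y-linked genes Ddx3y and Uty were at 6.18 and 16.3 FPKM in FMC 1, which is labelled female, against at most 0.130 and 0.923 FPKM in the other libraries labelled female. In the libraries labelled male Ddx3y was at 5.82 to 11.0 FPKM and Uty at 24.0 to 30.1 FPKM. Xist, transcribed from the inactive X chromosome, was at 16.3 FPKM in FMC 1. It was at 1.22 FPKM in FMC 4 and 0.819 FPKM in FM 2, against at most 0.0742 FPKM in the libraries labelled male. Other Y-linked genes were low in FMC 1. Kdm5d was at 11.2 to 13.1 FPKM in the libraries labelled male, against 0.926 FPKM in FMC 1 and 0.245 and 1.02 FPKM in the others labelled female. Eif2s3y was at 57.8 to 114 FPKM in the libraries labelled male, against 3.37 FPKM in FMC 1 and at most 1.39 FPKM in the others labelled female. The Y-linked genes thus did not give 1 answer for FMC 1, and results by sex are given with and without it.

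The 250 bases before the annotated start were searched for 7 of the genes with a window in the RefSeq promoter table (build GRCm38.p6), which gave 8 windows since Rnase4 has 2. The windows shown are 4, that of Fcrls, the gene with the largest difference, that of Sparc, the gene with the highest level, and both of Rnase4, whose first window is also that of the overlapping gene Ang. Capitals mark CAGACA or its reverse complement, the letters searched for Smad proteins, which carry TGF-beta signals to DNA.
Fcrls, chr3:87263525-87263774, minus strand: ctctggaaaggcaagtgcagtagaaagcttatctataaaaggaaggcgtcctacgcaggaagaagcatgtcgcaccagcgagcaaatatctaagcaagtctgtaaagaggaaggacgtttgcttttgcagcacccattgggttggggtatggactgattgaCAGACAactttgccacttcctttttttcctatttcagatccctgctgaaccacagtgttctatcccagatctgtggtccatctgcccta
Sparc, chr11:55420081-55420330, minus strand: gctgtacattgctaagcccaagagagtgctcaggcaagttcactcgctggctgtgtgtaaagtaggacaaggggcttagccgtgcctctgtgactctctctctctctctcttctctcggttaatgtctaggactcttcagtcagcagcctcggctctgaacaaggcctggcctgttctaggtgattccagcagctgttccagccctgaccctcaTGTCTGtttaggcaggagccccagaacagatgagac
Rnase4 and Ang, chr14:51090827-51091076, plus strand: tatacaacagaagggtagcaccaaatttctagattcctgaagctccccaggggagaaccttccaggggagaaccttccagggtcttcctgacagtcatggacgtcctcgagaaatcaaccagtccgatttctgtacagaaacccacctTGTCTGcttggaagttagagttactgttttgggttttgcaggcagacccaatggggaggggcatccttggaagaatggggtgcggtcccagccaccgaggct
Rnase4, chr14:51095750-51095999, plus strand: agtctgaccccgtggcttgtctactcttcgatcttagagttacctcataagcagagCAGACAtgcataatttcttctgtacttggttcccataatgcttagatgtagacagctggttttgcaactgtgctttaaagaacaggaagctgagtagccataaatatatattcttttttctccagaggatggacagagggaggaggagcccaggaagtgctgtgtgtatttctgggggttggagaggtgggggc
The CAGACA motif stood 83 bases before the start in Fcrls, 30 in Sparc, and 96 and 188 in the windows of Rnase4. Crybb1 also held it, so that 5 of the 8 windows had a match, and 17.1% of all 32851 promoter windows did. The letters GAGGAAGT, a form of the site of the myeloid factor PU.1, were in none of the 8 windows and in 2.44% of all windows. An ETS-IRF composite was in none of the 8 and in 2.30% of all, and an IRF motif in none and in 2.98%. The MEF2 consensus was in none of the 8 and in 0.508% of all. Both strands were searched, the ETS-IRF and IRF motifs can overlap, and a match is a description of letters and not of a bound site.

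Among the surface proteins, Tmem119 (ENSMUSG00000054675, mm9 chromosome 5, bases 114243738 to 114250525) had levels of 290.2, 156, 297 and 365 FPKM in FMC 1 to FMC 4, against 216 and 439.9 FPKM in FM 1 and FM 2. Selplg (ENSMUSG00000048163), which lies 17281 bases from Tmem119 (114267807 to 114280510), was at 710.3, 534, 605 and 1037 FPKM in FMC 1 to FMC 4, against 593 and 1397 FPKM in FM 1 and FM 2. In both genes FM 2 was highest, FMC 4 second and FMC 2 lowest, and the groups overlapped. Cx3cr1 (ENSMUSG00000052336, mm9 chromosome 9, bases 119957811 to 119977400) had levels of 70.7, 70.3, 110.3 and 88.2 FPKM in FMC 1 to FMC 4, against 87.9 and 84.4 FPKM in FM 1 and FM 2. The fractalkine receptor thus had both FM values inside the FMC range. Its ligand gene Cx3cl1 was between 0 and 1.61 FPKM in FMC and at 0.142 and 0.735 FPKM in FM.

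Fcrls (ENSMUSG00000015852, mm9 chromosome 3, bases 87054680 to 87067660) had levels of 21.09, 11.2, 5.23 and 17.6 FPKM in FMC 1 to FMC 4, against 21.16 and 50.6 FPKM in FM 1 and FM 2. All FMC libraries lay below both FM libraries, but FMC 1 and FM 1 were nearly equal, and they changed places after median ratio scaling. The lowest and the highest library differed 9.67-fold, the widest span of the 9 genes.

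Of the secreted proteins, Sparc (ENSMUSG00000018593, mm9 chromosome 11, bases 55208002 to 55233582) had levels of 964, 808, 625 and 1068 FPKM in FMC 1 to FMC 4, against 670.2 and 1619 FPKM in FM 1 and FM 2. Rnase4 (ENSMUSG00000021876, mm9 chromosome 14, bases 51710752 to 51725826) had levels of 220.3, 181, 207 and 269.8 FPKM in FMC 1 to FMC 4, against 139.9 and 352 FPKM in FM 1 and FM 2. For both genes FM 1 and FM 2 stood on either side of most FMC libraries. Olfml3 (ENSMUSG00000027848, mm9 chromosome 3, bases 103537623 to 103541924) had levels of 98.3, 96.4, 99.2 and 116 FPKM in FMC 1 to FMC 4, against 113 and 156 FPKM in FM 1 and FM 2. FMC 1, FMC 2 and FMC 3 lay within 3 FPKM of each other, and FMC 4 overlapped FM 1.

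Golm1 (ENSMUSG00000021556, mm9 chromosome 13, bases 59736357 to 59777145) had levels of 62.5, 52.3, 63.6 and 54.6 FPKM in FMC 1 to FMC 4, against 76.5 and 62.5 FPKM in FM 1 and FM 2. Its coefficient of variation over the 6 libraries was 13.8%, the smallest of the 9, followed by Cx3cr1 with 17.2% and Olfml3 with 20.02%. Crybb1 (ENSMUSG00000029343, mm9 chromosome 5, bases 112684835 to 112698605) had levels of 62.8, 47.2, 20.2 and 28.2 FPKM in FMC 1 to FMC 4, against 32.3 and 21.7 FPKM in FM 1 and FM 2. It was the member with a higher mean in FMC, and both FM values lay inside the FMC range.

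**Figure D1:**
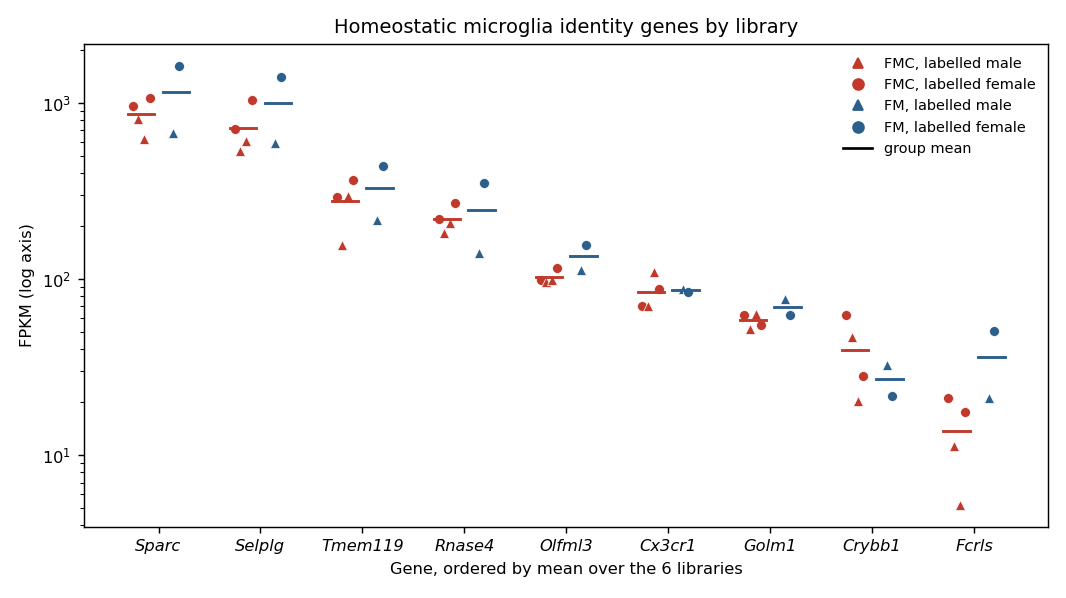
FPKM on a log axis of the 9 genes in each library, FMC left (red) and FM right (blue), triangles for libraries labelled male, circles for those labelled female, and lines for group means. The groups overlap in 8 of the 9 genes, and in Fcrls the FMC libraries (5.23 to 21.09 FPKM) lie below both FM libraries (21.16 and 50.6 FPKM).

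The full order of levels held in FMC 4 and FM 1 and was broken at 1 pair of neighbours in each of the other 4 libraries. Selplg was above Tmem119 by 2.04-fold to 3.42-fold in 6 of 6 libraries, and the ranges of these neighbours in the order did not overlap. Sparc was above Selplg in 6 of 6 libraries by 1.03-fold to 1.51-fold, Rnase4 above Olfml3 in 6 of 6, and Cx3cr1 above Golm1 in 6 of 6, each with overlapping ranges. The other neighbours, Tmem119 and Rnase4, Olfml3 and Cx3cr1, Golm1 and Crybb1, and Crybb1 and Fcrls, changed places in 1 of the 6 libraries and did not differ beyond their spread. Among genes at 1 FPKM or more, Sparc and Selplg stood at or above percentile 98.96 in each library, and Tmem119 and Rnase4 at or above percentile 97.3. Crybb1 ranged from percentile 71.9 to 90.03, and Fcrls from 38.2 in FMC 3 to 87.4 in FM 2.

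The comparison of FMC with FM asks whether these identity genes are altered in optic nerve microglia of mice with the Cre transgene. None of the 9 passed limma's test at an adjusted p under 0.05, where 0.0275% of the 18208 genes tested did (0 higher and 5 lower). The share called is so low that 0 of 9 says little about the 9 genes. Without adjustment, 208 genes were higher and 765 lower at p under 0.05, and none of the 9 was among them. The unadjusted p of Fcrls was 0.0782 in this limma fit. Of the alternative limma fits, only sex as a covariate (0.0378), the date block (0.0409) and equal sums (0.0351) put it under 0.05. Equal sums were added after the data were seen. It was 0.0812 with median ratio scaling, 0.164 without FMC 3 and 0.252 with the replicate block. Fcrls averaged 13.8 ± 7.0 FPKM in FMC (SD, n = 4) and 35.9 ± 20.8 FPKM in FM (SD, n = 2). On the log2(FPKM + 1) scale, which understates changes of low genes, FMC minus FM was -1.35 ± 0.68 (SE), with a 95% interval of -2.88 to 0.19 and an adjusted p of 0.993. Libraries with title dates 1 day apart differed by -0.86 for FMC 2 minus FM 1 and -3.05 for FMC 3 minus FM 2. Every FMC library lay below both FM libraries as deposited, so any pair had to be negative, whatever its title dates. What these dates record is not stated, and the second pair differs in labelled sex. Without FM 2 the difference was -0.74 and without FM 1 it was -1.96.

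The other 8 differences were between -0.38 and 0.43 on the log2(FPKM + 1) scale. Selplg averaged 722 ± 222 FPKM in FMC (SD, n = 4) and 995 ± 569 FPKM in FM (SD, n = 2), a difference of -0.38 with a 95% interval of -1.70 to 0.94. Olfml3 averaged 102 ± 9 FPKM in FMC and 135 ± 31 FPKM in FM, a difference of -0.38 with an interval of -1.31 to 0.56. The intervals of Selplg and Olfml3 thus take in a halving as well as no change. Those of Fcrls, Sparc, Golm1, Tmem119, Cx3cr1 and Rnase4 do so too. On the upper side, the intervals of Sparc, Rnase4 and Crybb1 take in a doubling. Sparc averaged 867 ± 193 FPKM in FMC and 1145 ± 671 FPKM in FM (difference -0.29, interval -1.63 to 1.04), and Golm1 58.2 ± 5.7 FPKM in FMC and 69.5 ± 9.9 FPKM in FM (-0.25, interval -1.19 to 0.69). Tmem119 averaged 277 ± 87 FPKM in FMC and 328 ± 158 FPKM in FM (-0.22, interval -1.44 to 1.00). Cx3cr1 and Rnase4 were closest to no difference, at -0.05 (interval -1.01 to 0.92) and -0.03 (interval -1.18 to 1.12). Cx3cr1 averaged 84.9 ± 18.9 FPKM in FMC and 86.1 ± 2.5 FPKM in FM, and Rnase4 219.7 ± 37.2 FPKM in FMC and 246 ± 150.0 FPKM in FM. Crybb1 averaged 39.6 ± 19.2 FPKM in FMC and 27.0 ± 7.5 FPKM in FM (0.43, interval -0.86 to 1.72). Adjusted p was between 0.993 and 0.999 for all 9 (limma).

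**Figure D2:**
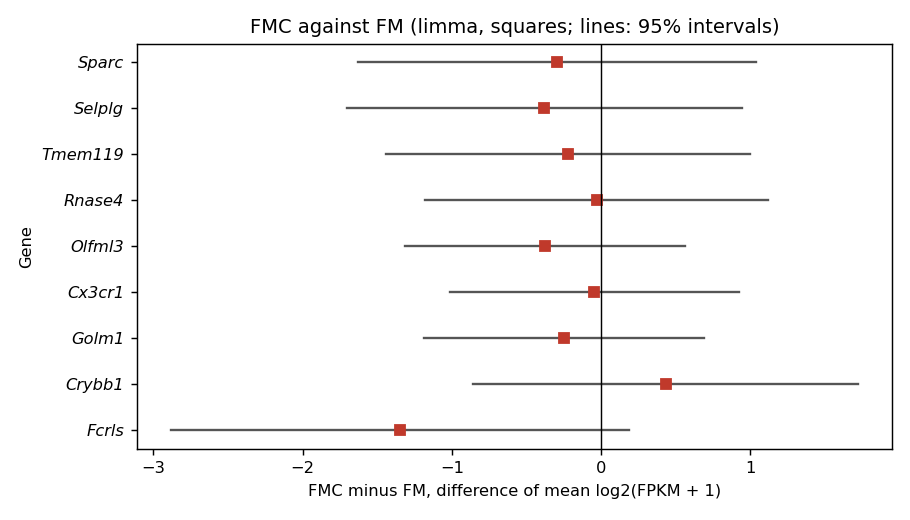
Difference of FMC minus FM in mean log2(FPKM + 1) for each gene (squares, limma) with its 95% interval (lines), genes ordered by level. All 9 intervals include 0, and the estimates run from -1.35 (Fcrls) to 0.43 (Crybb1).

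As a group, 1 of the 9 genes was higher and 8 were lower in FMC, with a median difference of -0.25, beside 7923 higher and 10285 lower of all 18208 genes tested and a median of -0.12. All FMC libraries lay below both FM libraries in 1 of 9 members, against 8.22% of all genes, and above both in 0 of 9, against 4.34%. After median ratio scaling the groups overlapped in Fcrls, and Olfml3 was the 1 of 9 with all FMC libraries below both FM libraries, against 7.35% of all genes. The median of all genes moved to -0.03 with median ratio scaling and to -0.22 with scaling to equal FPKM sums, an alternative added after the data were seen. With equal sums, Olfml3 joined Fcrls in having all FMC libraries below both FM libraries (2 of 9, against 10.2% of all genes).

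The estimates above lean on FM 2. Relative to each gene's own mean over the 6 libraries, the median deviation of the 9 genes was 0.66 (log2) in FM 2, -0.01 in FM 1 and between -0.26 and 0.06 in the FMC libraries. All genes tested had medians of 0.18 in FM 2, -0.08 in FM 1 and between -0.22 and 0.16 in FMC. FM 2 was the highest library for 6 of the 9 genes, Tmem119, Olfml3, Fcrls, Sparc, Selplg and Rnase4, and for 23.07% of all genes tested. FMC 2 was the lowest for 5 of the 9. Without FM 2, 4 of the 9 differences turned positive, Tmem119 to 0.29, Selplg to 0.24, Sparc to 0.34 and Rnase4 to 0.63. The only FM library is then FM 1, labelled male and with the lowest FPKM sum. Genotype, labelled sex and library scale thus cannot be told apart in these 4 values. Among the libraries labelled male, FM 1 lay between FMC 2 and FMC 3 in Tmem119, Selplg and Sparc, and below both in Rnase4.

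**Figure D3:**
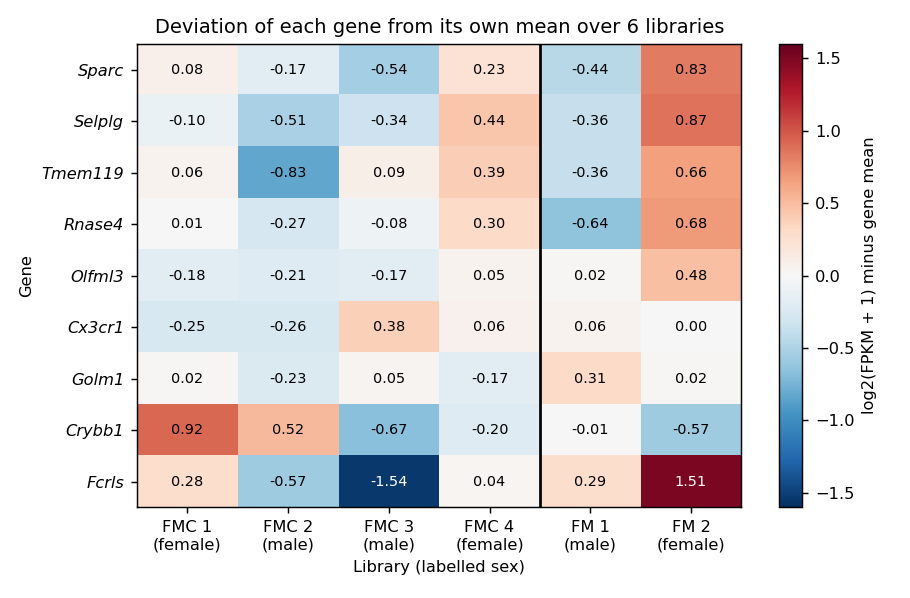
Deviation of log2(FPKM + 1) from each gene's mean over the 6 libraries, with FMC libraries left of the line, FM libraries right of it and the labelled sex below. FM 2 has the highest value of Fcrls (1.51), Selplg (0.87) and Sparc (0.83), while Crybb1 is highest in FMC 1 (0.92).

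The 9 genes did not vary as 1 block. The root mean square difference between centred log2(FPKM + 1) profiles over the 6 libraries was smallest for Sparc and Selplg (0.20), Selplg and Rnase4 (0.21), Sparc and Rnase4 (0.22), Cx3cr1 and Golm1 (0.23) and Tmem119 and Selplg (0.24). Tmem119 and Sparc differed by 0.39, more than Olfml3 and Sparc (0.31), so these profiles gave no sharp groups. Fcrls and Crybb1 were farthest apart (1.07). Among 8106 other named genes with a mean of at least 5 FPKM, the closest profile to Tmem119 was Dennd1c (0.08), to Selplg Alg5 (0.10), to Sparc Gin1 (0.06), to Rnase4 Tsc22d4 (0.05) and to Olfml3 Nol9 (0.06). The closest to Cx3cr1 was Lztr1 (0.05), to Golm1 Eif3c (0.07), to Fcrls Rbm45 (0.16) and to Crybb1 Pds5b (0.16). For each of the 9 genes at least 31 other genes were closer than the nearest fellow member, which ranked from 32 (Sparc) to 846 (Crybb1) among the 8106. Fellow members are few among so many genes, so these ranks do not show that the likeness within the group is weak. Whether the 9 are more alike than other sets of genes was not tested.

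The libraries labelled male had lower levels of several of these genes than those labelled female. Sparc was at 808, 625 and 670.2 FPKM in the libraries labelled male (FMC 2, FMC 3, FM 1), against 964, 1068 and 1619 FPKM in those labelled female (FMC 1, FMC 4, FM 2). Selplg was at 534, 605 and 593 FPKM in males, against 710.3, 1037 and 1397 FPKM in females, and Rnase4 at 181, 207 and 139.9 FPKM in males, against 220.3, 269.8 and 352 FPKM in females. In these 3 of 9 genes the sexes did not overlap, with all male libraries below all female ones, as in 9.03% of all genes tested. The opposite order was seen in 0 of the 9 and in 3.27% of all genes. With genotype in the fit the male minus female difference was -0.81 ± 0.31 (SE) for Selplg (limma, adjusted p = 0.624), -0.77 ± 0.31 for Sparc (0.641), -1.22 ± 0.51 for Fcrls (0.660), -0.74 ± 0.36 for Tmem119 (0.710) and -0.66 ± 0.35 for Rnase4 (0.728). None of the 9 and 0% of all genes passed at an adjusted p under 0.05. At an unadjusted p under 0.05, 343 genes were higher and 1011 lower in males. The lower ones were 5.55% of all and included Selplg, Sparc and Fcrls. Olfml3 differed by -0.24, Crybb1 by -0.10, Golm1 by 0.08 and Cx3cr1 by 0.12.

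The FPKM sums moved with labelled sex, at 420285 to 494766 in males and 608633 to 674799 in females. After scaling to equal sums 0 of the 9 genes had all male libraries below all female ones (3.92% of all genes did), and after median ratio scaling Selplg alone did (6.06% of all genes). With quantile normalization the differences of Sparc and Selplg were 0.040 and 0.036. The median male minus female difference of all genes was -0.15 as deposited, 0.04 with median ratios and 0.20 with equal sums. The library scale and the labelled sex cannot be told apart here. Without FMC 1, where Xist and some Y-linked genes were both detected, the sexes did not overlap in 5 of 9 genes, Tmem119, Olfml3, Sparc, Selplg and Rnase4 (19.4% of all genes), and in 1 of 9, Selplg, after either scaling (11.9% of all genes with median ratios and 10.8% with equal sums). Without FMC 1 and with levels as deposited, the male minus female difference of Selplg was -1.02 ± 0.25 (SE, limma, adjusted p = 0.303). No fit was made on scaled levels without FMC 1. The interaction of sex and genotype passed in none of the 9 and in 0% of all genes.

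**Figure D4:**
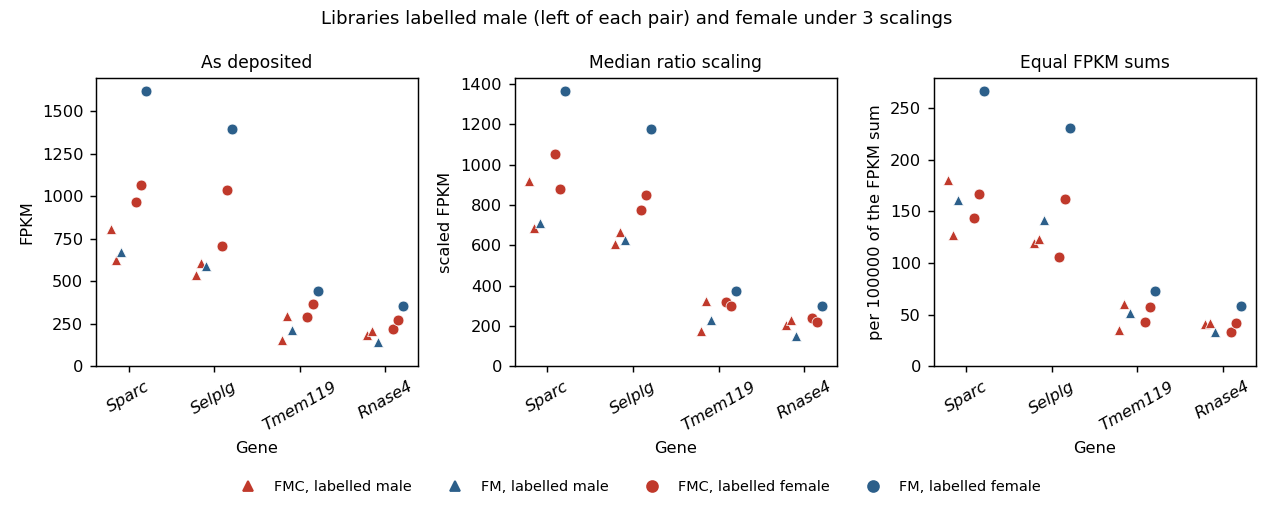
Sparc, Selplg, Tmem119 and Rnase4 in libraries labelled male (triangles, left of each pair) and female (circles), coloured by genotype, as deposited, after median ratio scaling and after scaling to equal FPKM sums. The separation of Sparc as deposited (625 to 808 FPKM in males, 964 to 1619 FPKM in females) is not seen with equal sums.

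Other genes of the homeostatic programme were also more often lower than higher in FMC, as were all genes tested. Of 39 further genes measured, 10 were higher and 29 lower in FMC, 0 passed the test, and the median difference was -0.21. Abundant ones were Cst3, which encodes the protease inhibitor cystatin C (3206 ± 1208 FPKM in FMC and 4340 ± 2572 FPKM in FM), and the protease gene Ctss (1815 ± 646 FPKM in FMC and 1674 ± 941 FPKM in FM). All FMC libraries lay below both FM libraries in 7 of the 39, against 8.22% of all genes. Of these, named after their values were seen, the fructose transporter Slc2a5 was at 96.1, 83.1, 195 and 177 FPKM in FMC 1 to FMC 4, against 242 and 357 FPKM in FM 1 and FM 2. FM 2 was the highest library for 23 of the 39, and in 16 of the 39 all male libraries lay below all female ones, against 9.03% of all genes. That number was 10 after median ratio scaling (6.06% of all genes) and 5 with equal sums (3.92%). Genes that rise in disease-associated microglia were higher in FMC in 16 of 21 and lower in 5, with a median of 0.24 and 0 past the test. Both FM libraries lay below every FMC library in 4 of the 21, against 4.34% of all genes, and all male libraries below all female ones in 12 of the 21, against 9.03%. The counts by sex of the 39 and of the 21 genes include FMC 1 and were not made without it. Those of the 21 were not made after scaling either. The counts of the 39 and of the 21 without overlap between FMC and FM were made only as deposited. The most abundant of the 21 were Apoe, Tyrobp and Ctsd. The lipid carrier Apoe was at 2464 ± 1153 FPKM in FMC and 2943 ± 2747 FPKM in FM. Tyrobp, a signalling adaptor, was at 2074 ± 1136 and 2346 ± 1981 FPKM, and the protease Ctsd at 855 ± 182 and 619 ± 276 FPKM in FMC and FM. Gpnmb had the largest difference of the 21 and is named after its values were seen. It was at 9.01 ± 3.33 FPKM in FMC and 0.26 ± 0.28 FPKM in FM (limma, adjusted p = 0.487).

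Several of the 9 genes are also made by other cells that the sorted fraction could hold. Markers of border-associated macrophages, the macrophages of meninges and vessels, summed to 481, 365, 287 and 375 FPKM over 10 genes in FMC 1 to FMC 4, against 562 and 801 FPKM in FM 1 and FM 2. With levels as deposited, the 6 libraries fell in the same order for this sum as for Fcrls. FMC 1 and FM 1 changed places in Fcrls after median ratio scaling, and the sum was not made on scaled levels. Of the 10 tested, 2 were higher and 8 lower in FMC and 0 passed; Pf4 was at 72.6 ± 26.5 FPKM in FMC and 168 ± 56 FPKM in FM, Cbr2 at 87.3 ± 59.6 and 138 ± 28 FPKM, and Stab1 at 75.7 ± 12.1 and 157 ± 60.2 FPKM in FMC and FM. Their part in the values of Fcrls was not tested, and in bulk RNA fewer cells of a type and less RNA per cell cannot be told apart.

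**Figure D5:**
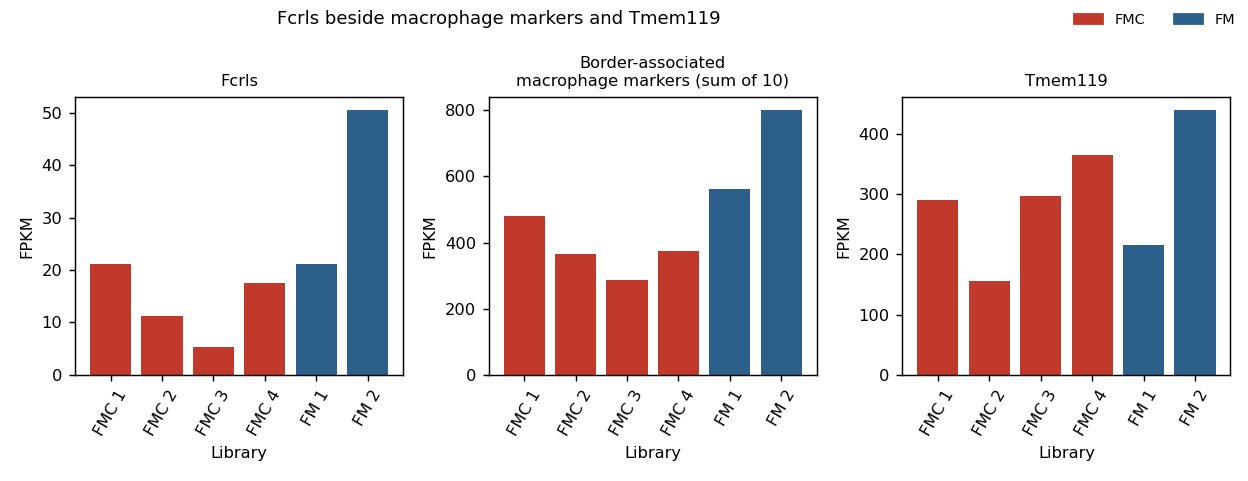
Fcrls, the summed level of 10 border-associated macrophage markers, and Tmem119 in each library (bars, FPKM; FMC red, FM blue). Fcrls and the marker sum are highest in FM 2 (50.6 and 801 FPKM) and lowest in FMC 3 (5.23 and 287 FPKM), while Tmem119 is lowest in FMC 2 (156 FPKM).

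Sparc is abundant in fibroblasts, endothelium and astrocytes. Fibroblast and mural markers summed to 158, 21.2, 30.2 and 26.4 FPKM over 13 genes in FMC 1 to FMC 4, against 105 and 164 FPKM in FM 1 and FM 2, with 8 of 11 tested lower in FMC and 0 called. Mgp led them, at 8.73 ± 5.57 FPKM in FMC and 101 ± 38 FPKM in FM, with Dcn at 90.2 FPKM in FMC 1 and at most 9.17 FPKM elsewhere and Vtn at 33.2 FPKM in FMC 1. Sparc and that sum were both highest in FM 2, at 1619 and 164 FPKM, while FMC 4, second in Sparc at 1068 FPKM, had a sum of 26.4 FPKM. Endothelial markers, led by Pecam1, Flt1 and Ly6c1, summed to between 17.5 and 48.8 FPKM in FMC and to 35.07 and 30.8 FPKM in FM. Pecam1 was at 20.1, 15.6, 2.69 and 2.58 FPKM in FMC 1 to FMC 4, against 4.24 and 12.2 FPKM in FM 1 and FM 2. Cldn5, a defining marker named after its values were seen, was at 0 in FMC 2, FMC 3 and FMC 4, where Flt1 was at 11.2, 6.62 and 10.7 FPKM. In FMC 1 Cldn5 was at 0.118 FPKM, and in FM 1 and FM 2 at 0.568 and 1.09 FPKM. Astrocyte markers were led by Slc1a3, Gja1 and Slc1a2. Slc1a3 was between 104 and 120.2 FPKM in FMC and at 108 and 130.1 FPKM in FM. Gja1 was between 0.0292 and 6.43 FPKM in FMC and at 1.302 and 9.77 FPKM in FM, and Slc1a2 between 0.0229 and 7.78 FPKM in FMC and at 5.90 and 0.221 FPKM in FM. The defining markers Gfap and S100b, named after their values were seen, did not exceed 0.309 and 0.144 FPKM in FMC, and Gfap was at 0.183 and 3.06 FPKM in FM. The part of these cells in the values of Sparc was not tested.

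Selplg is also made by leukocytes. T and NK cell markers summed to 332, 89.6, 73.6 and 33.5 FPKM over 15 genes in FMC 1 to FMC 4, against 37.3 and 61.9 FPKM in FM 1 and FM 2, and neutrophil markers to 519.9, 180.07, 89.02 and 255 FPKM over 11 genes in FMC, against 379.8 and 50.9 FPKM in FM. The part of these cells in the values of Selplg was not tested. Of these lists 9 of 13 and 5 of 9 tested genes were higher in FMC, with Trac, Nkg7 and Lck leading the T and NK list and S100a8, S100a9 and Camp the neutrophil list. Trac was at 56.1 ± 57.4 FPKM in FMC and 8.41 ± 0.74 FPKM in FM, and S100a8 at 95.1 ± 71.4 FPKM in FMC and 127 ± 122 FPKM in FM. Of the monocyte markers Chi3l3 had the highest mean, which rests on FMC 3 (122 FPKM, against 7.45 to 16.8 FPKM in the other 3 libraries with a value), and it was not tested. Ms4a4c and Fn1 came next, and 6 of the 9 tested were higher, with the defining Ccr2, named after its values were seen, at 30.8 ± 14.3 FPKM in FMC and 22.1 ± 0.2 FPKM in FM, and B cell markers, led by Ighm, Cd79b and Cd22, in 6 of 7. Ighm was at 313 ± 133 FPKM in FMC and 218 ± 35 FPKM in FM. Dendritic cell markers, led by Siglech, Clec9a and Ccr9, were higher in 2 of 7, and Siglech, which made up most of their sum, is also among the 39 homeostatic genes above. Oligodendrocyte lineage markers, led by Cnp, Mbp and Mag, summed to between 24.9 and 46.9 FPKM in FMC and to 17.8 and 34.2 FPKM in FM, and neuron and retina markers, led by Nefm, Rbfox3 and Pde6b, to at most 9.52 FPKM in any library. No gene of these lists passed the test.

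Crybb1 stood out among the crystallins, which fill the lens. Of 19 lens genes, Crybb1 and its neighbour Cryba4, 3296 bases away on chromosome 5, were above 1 FPKM in all 6 libraries. Cryba4 was at 35.3, 27.3, 26.2 and 16.4 FPKM in FMC 1 to FMC 4, against 5.87 and 22.2 FPKM in FM 1 and FM 2, a difference of 1.06 ± 0.63 (SE, limma adjusted p = 0.993). The major lens crystallin Cryaa was at 0.0838, 0.516, 0 and 2.38 FPKM in FMC and at 0 and 0.372 FPKM in FM, and 9 of the 19 genes were under 1 FPKM in every library. Bfsp1, a lens filament gene, came next at 5.76 ± 5.54 FPKM in FMC and 1.95 ± 2.37 FPKM in FM. On the other side of Crybb1, Tpst2, a sulfotransferase of tyrosine residues, was at 44.6, 82.03, 51.4 and 87.6 FPKM in FMC 1 to FMC 4, against 16.7 and 73.6 FPKM in FM 1 and FM 2.

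Rnase4 overlaps Ang, the gene of angiogenin, and the genes share their upstream start, so reads of the shared part could be split between them and both values are uncertain; the strand setting is not known here. Ang was at 59.96, 77.0, 74.9 and 109 FPKM in FMC 1 to FMC 4, against 89.04 and 97.8 FPKM in FM 1 and FM 2, and unlike Rnase4 it did not have FM 1 as its lowest library. Coro1c, next to Selplg on the side away from Tmem119, was at 97.7, 11.6, 106 and 39.4 FPKM in FMC 1 to FMC 4, against 38.2 and 68.7 FPKM in FM 1 and FM 2. Iscu, next to Tmem119, was between 10.2 and 42.3 FPKM in FMC and at 34.6 and 17.4 FPKM in FM. Neither neighbour shared the peak of Tmem119 and Selplg in FM 2. Naa35, 197 bases from Golm1, was between 51.6 and 68.3 FPKM in FMC and at 60.2 and 145 FPKM in FM, and Hipk1 near Olfml3 between 22.04 and 45.8 FPKM in FMC and at 23.9 and 24.3 FPKM in FM. The rows that lie near Olfml3 (Gm10964, Gm16520, BC027582), Sparc (Gm12234), Selplg (Gm17122), Golm1 (4921517D22Rik) and Rnase4 (Olfr750, Eddm3b) did not exceed 5.38 FPKM. No other row lies within 20 kb of Fcrls or Cx3cr1. Of the relatives and partners of the 9 genes, 5 of 15 tested were higher in FMC and 0 passed. Tgfb1, the ligand gene of the TGF-beta pathway, was at 24.7 ± 4.4 FPKM in FMC and 45.7 ± 35.9 FPKM in FM, with 71.1 FPKM in FM 2, and the RNase gene Rnase6 at 20.1 ± 12.5 and 18.1 ± 12.1 FPKM in FMC and FM. The selectin genes Selp and Sele, whose products bind Selplg, did not exceed 0.911 FPKM in any library.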

How the data were processed

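Cells were sorted by flow after a Percoll step, and RNA was amplified by the Ovation RNA-Seq method and sequenced on an Illumina HiSeq, per the labels' protocols. The deposited table holds FPKM values made by the authors, 1 column per library; build mm9, Cufflinks 2.0.2, Bowtie2 2.0.0, TopHat2 2.0.4 and CASAVA 1.8.2 are listed in the submitters' processing notes, without roles. No source used here gives the strand setting. Table starts were raised by 1, since gene lengths then equal those of GENCODE in 21681 of 32797 genes (420 as given). Of 37447 genes 426 lacked a value in some library and were left out. A gene was tested if 2 or more libraries had 1 FPKM or more, which 18208 genes met. The test used log2(FPKM + 1) values and limma 3.58.1 in R 4.3.3 (intensity trend, two-sided, Benjamini-Hochberg over all genes, threshold 0.05), by genotype alone, and by sex with genotype. No counts were used, so precision rests on the spread between libraries. The fits were tested on simulated data.

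The members, lists, tests and rules were chosen with earlier results of these data known. Of the lists, genes past the test or else the 3 most abundant are named, except 1 that is not reported here. Also named are the closest profile to each member and rows within 20 kb. Older symbols were matched by gene ID. Alternatives were the pseudocount, filter, scaling, variance model, sex, blocks by replicate number or title date, and leaving out each library. Scaling to equal FPKM sums, the sex difference of each member and the sex comparison without FMC 1 under each scaling were added after the data were seen.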

Additional observations from a re-analysis of the deposited data

Results flagged for a closer look

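Olfml3 was at 116 FPKM in FMC 4 and between 96.4 and 99.2 FPKM in the other FMC libraries. The gap between FMC 4 and the nearest of them was 0.852 of the range of the group, above Dixon's 95% critical value for 4 samples. Chance flags about 1 in 20 groups, and 9 genes were looked at.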

How the results depend on the processing

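None of the 9 genes was called in FMC against FM in any of the 17 alternatives, nor by sex in any of 14, nor for the interaction in 8. Fcrls, Olfml3, Golm1 and Crybb1 kept their direction in FMC against FM in all 17, and the adjusted p of Fcrls ran from 0.767 to 1.00. With 1 library left out, FMC minus FM ran from -0.73 to 0.29 for Tmem119, -0.93 to 0.34 for Sparc, -0.999 to 0.24 for Selplg, -0.69 to 0.63 for Rnase4 and -0.18 to 0.035 for Cx3cr1. Cx3cr1 also changed sign with median ratio scaling (0.074), array weights (0.0029) and the date block (0.032), and Rnase4 with median ratio scaling (0.091). By sex, 1 library left out gave -0.070 to 0.30 for Cx3cr1, -0.019 to 0.19 for Golm1 and -0.43 to 0.33 for Crybb1. Sex differences also changed sign for Olfml3 with median ratio scaling (0.027), quantile normalization (0.17) and equal sums (0.26), for Sparc (0.040) and Selplg (0.036) with quantile normalization, and for Crybb1 with median ratio scaling (0.15), quantile normalization (0.22), array weights (0.0015) and equal sums (0.38). The cause was not tested.

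The number of genes called in FMC against FM, 5 as reported, was 1 with a pseudocount of 0.1, 0 with no filter, 0 with a mean of at least 5 FPKM, 10 with no intensity trend, 0 with sex as a covariate and 3 with the date block. Leaving out 1 library gave 0 to 8 calls: 8 without FMC 4, 4 without FMC 1 and 0 without any of the other 4. By sex 0 genes were called, and 0 to 4 with 1 library left out, the 4 without FMC 1. A fit with 1 FM library takes its spread from FMC. Replicate numbers were shared by 2 pairs of libraries, whose deviations from their group means correlated at 0.031 and -0.057 across genes, so the numbers were not taken as pairing. With the replicate block 0 genes were called, the 9 included.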
